A study of Mus musculus with 4 samples.

Results

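The H2 genes are the mouse major histocompatibility complex (MHC) genes, and they were followed here in limb and brain of embryos with a conditional knockout of the transcriptional repressor Rest. The set holds every gene whose name on the array begins with H2-, which gave 38 of 27630 genes, read by 59 of 41174 probes. Each gene was represented by its brightest probe. The genes were selected on the readout as well, because several of them were higher in both tissues of the Rest mutant in these same arrays, so their differences between mutant and control are descriptions and carry no test. The groups were limb and brain of Rest conditional knockout (CKO) embryos, and limb and brain of Rest wild type (WT) embryos, all taken at E13.5 (embryonic day), with 1 array for each of the 4 groups. Per the labels, the knockout came from floxed Rest alleles and doxycycline-inducible Cre alleles, and doxycycline from E8.5 through E13.5 is recorded for all 4 samples, WT included. The promoter behind the inducible system and the number of embryos in each RNA sample are not stated in the labels. The labels give the genetic background of all 4 samples as 129 and C57BL/6, and they give no MHC haplotype. With 1 array per group, the genotype, the embryos and the array cannot be told apart.

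Class I molecules of the MHC sit on nearly all nucleated cells, pair with beta-2 microglobulin and show peptides from inside the cell to T cells and natural killer cells. Class II molecules show peptides taken up from outside and are made mainly by dendritic cells, B cells and macrophages. Both are known to be low in early embryos and in the nervous system, and both are raised by interferon. The class I genes are close copies of one another and differ between mouse strains, so a probe can bind the transcripts of several genes and can match the allele of one strain better than that of another.

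All values are log2 intensities of Cy3-labelled RNA on single-colour Agilent arrays, with 0 set at each array's 75th percentile, and differences are CKO minus WT. Between 62.7% and 70.7% of the 43379 non-control spots of an array were well above background, and the share was higher on both CKO arrays (68.6% in limb and 70.7% in brain) than on the WT arrays (62.7% in limb and 64.5% in brain). The 3 probes of Rest were 17.2-, 15.7- and 4.03-fold lower in CKO limb than in WT limb. In brain they were at least 6.60-fold, 11.9-fold and 1.88-fold lower in CKO; the labels do not say whether any of them lies in the deleted part. The arrays' technical error could be read from 245 probes printed on 10 spots, whose CKO minus WT difference had a median SD between spots of 0.05 in limb and 0.05 in brain. For probes above 0 the median SD was 0.03 in limb and 0.03 in brain, and below -3 it was 0.27 in limb and 0.29 in brain. This error leaves out labelling and differences between embryos.

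Of the 38 H2 genes, 19 were well above background on all 4 arrays, 7 on some of them and 12 on none. The 12 were M1, M9, M11, M10.1, M10.3, M10.4, M10.5, M10.6, T3, Ea-ps, DMb2 and Ob. The M10 family is known from sensory neurons of the vomeronasal organ, Ea-ps is the I-E alpha chain locus and DMb2 and Ob take part in class II peptide loading. No difference is given for these genes. The 38 fall into 26 class I genes, 10 class II genes and a pair, Ke2 and Ke6, that carry an H2 name without encoding an MHC molecule. In limb 26 genes entered the comparison of CKO with WT, and in brain 23 did.

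**Figure D1:**
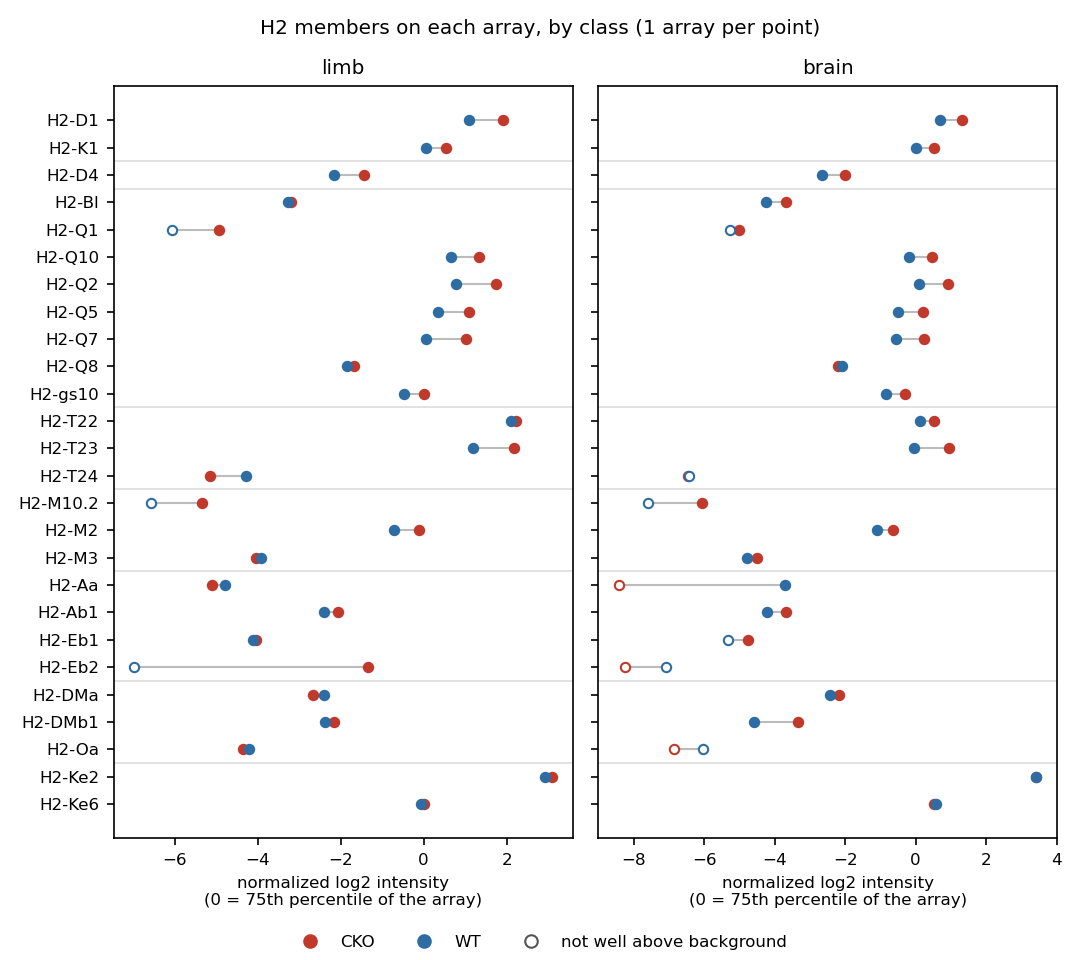
Normalized log2 intensity (x axis, 0 = 75th percentile of the array) of the 26 H2 genes well above background on at least 1 array, in limb (left) and brain (right), 1 array per point, with grey lines between classes. CKO points are red and WT points blue, and open points were not well above background. The red points of D1, D4, Q2, Q5, Q7, Q10 and T23 lie to the right of the blue ones in both tissues, while the Ke2 and Ke6 points lie close together.

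Most class I genes compared were higher in CKO than in WT in both tissues. Among the 17 class I genes compared in limb the median difference was 0.47 and 14 lay above 0, and among the 16 compared in brain the median was 0.54 and 14 lay above 0. Over all H2 genes compared the median was 0.20 in limb and 0.53 in brain. Over all genes the median was -0.02 in limb (18452 genes, 7391 above 0) and -0.01 in brain (18948 genes, 7935 above 0). At least 1.5-fold higher in CKO were 9 H2 genes in limb, 8 of them class I, against 4.77% of all genes compared. In brain 8 were, 7 of them class I, against 3.48% of all genes. At least 1.5-fold lower was 1 H2 gene in limb (4.73% of all genes) and 1 in brain (1.98% of all genes). In both tissues, 7 H2 genes were at least 1.5-fold higher of the 23 compared in both, all 7 of them class I, against 0.620% of the 17413 genes compared in both. None was 1.5-fold lower in both. With quantile normalization, which gives the 4 arrays 1 distribution of signal, the count in both tissues was also 7. The contrast chose the genes, so nothing is read from these shares.

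**Figure D2:**
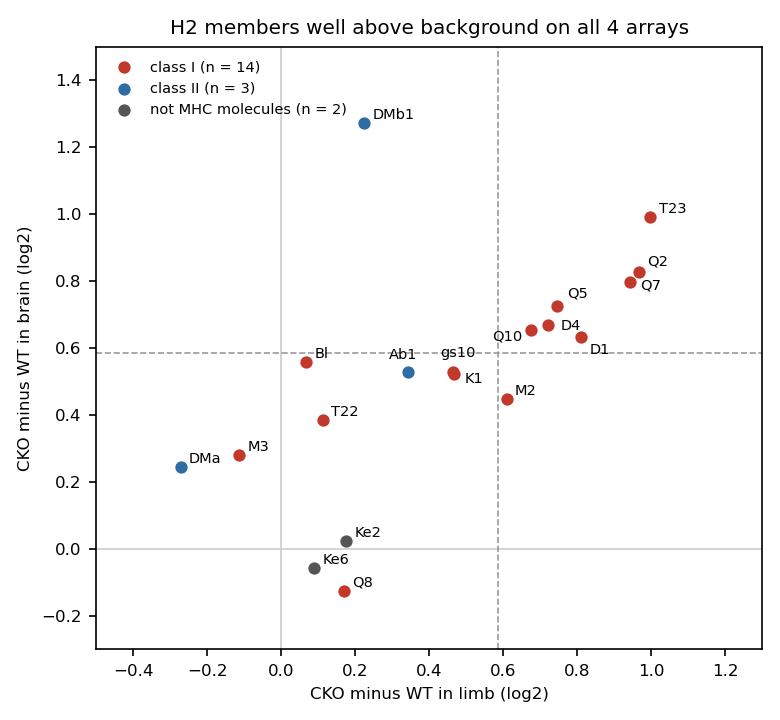
CKO minus WT (log2) in brain (y axis) against limb (x axis) for the 19 H2 genes well above background on all 4 arrays, with names shown without their H2- prefix. Class I genes are red, class II genes blue and genes that are not MHC molecules grey, and dashed lines mark a 1.5-fold difference. The 7 genes in the upper right corner are all class I, and DMb1 stands alone at 1.27 in brain and 0.22 in limb.

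K1 and D1 are the classical class I genes, whose products show peptides to CD8 T cells. H2-D1 read 1.91 in CKO limb and 1.10 in WT limb, and 1.32 in CKO brain and 0.69 in WT brain. It was thus 1.76-fold higher in CKO limb and 1.55-fold higher in CKO brain. H2-K1 read 0.54 in CKO limb and 0.07 in WT limb, and 0.53 in CKO brain and 0.01 in WT brain, which is 1.38-fold and 1.44-fold higher in CKO. For both genes the lower CKO array lay above the higher WT array. H2-K1 had 4 probes above background on all arrays, and their differences ran between 0.36 and 0.84 in limb and between 0.50 and 0.77 in brain. The second D1 probe differed by 0.88 in limb and 0.54 in brain, and with the mean of both probes D1 stood at 0.584 in brain, just under the 1.5-fold line of 0.585. H2-D4, a further class I locus of the D region, read -1.44 in CKO limb and -2.17 in WT limb, and -1.99 in CKO brain and -2.66 in WT brain. Its difference was 0.72 in limb and 0.67 in brain. With normexp background correction, which models each spot as signal plus background in place of the scanner's processed signal, it was 0.577 in limb and 0.477 in brain, both under 1.5-fold, and 6 H2 genes were then at least 1.5-fold higher in both tissues.

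The Q region holds class Ib genes, which vary less between strains than the classical ones. H2-Q2 read 1.75 in CKO limb and 0.78 in WT limb, and 0.91 in CKO brain and 0.08 in WT brain. It was 1.96-fold higher in CKO limb and 1.77-fold higher in CKO brain. H2-Q7, which encodes the lipid-anchored Qa-2 antigen, read 1.01 in CKO limb and 0.07 in WT limb, and 0.23 in CKO brain and -0.57 in WT brain. These are folds of 1.92 in limb and 1.74 in brain. H2-Q5 read 1.09 in CKO limb and 0.34 in WT limb, and 0.22 in CKO brain and -0.51 in WT brain, a difference of 0.74 in limb and 0.73 in brain. H2-Q10, known as a secreted class I molecule of liver, read 1.33 in CKO limb and 0.66 in WT limb, and 0.46 in CKO brain and -0.20 in WT brain, a difference of 0.68 in limb and 0.65 in brain. Of the 5 Q10 probes, 2 were well above background on all 4 arrays and 2 on none. A further Q10 probe exceeded background in CKO limb alone, at -5.32. With the mean of all Q10 probes the brain difference was 0.42, under 1.5-fold, and 5 H2 genes were then at least 1.5-fold higher in both tissues. All 4 genes were lowest in WT brain and highest in CKO limb. Smaller differences stood at gs10, with 0.46 in limb and 0.53 in brain, and at Q8, with 0.17 and -0.13. H2-Bl, grouped with the Q genes here although its probe lies between those of T22 and T3, differed by 0.07 in limb and 0.56 in brain. The array design also places the Q5 probe between those of T22 and T3. H2-Q1 was above background on the CKO arrays alone, at -4.94 in limb and -5.02 in brain, and was at least 1.01-fold higher in CKO limb and at least 1.18-fold higher in CKO brain.

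In the T region, H2-T23 encodes Qa-1, the ligand that natural killer cells read through their CD94 and NKG2 receptors. It read 2.18 in CKO limb and 1.18 in WT limb, and 0.95 in CKO brain and -0.04 in WT brain. The difference was 0.998 in limb and 0.991 in brain, the widest in each tissue among the 7 genes. H2-T22, a ligand of gamma delta T cells that lies near it on the chromosome, read 2.22 in CKO limb and 2.11 in WT limb, and 0.52 in CKO brain and 0.14 in WT brain. Its 3 probes ran between 0.10 and 0.11 in limb and between 0.29 and 0.38 in brain, smaller than the T23 difference in both tissues. H2-T24 was the 1 H2 gene at least 1.5-fold lower in limb, at -5.14 in CKO and -4.27 in WT, and was not above background in brain; it was chosen for mention after its values were seen. With normexp its limb difference was -0.39, under 1.5-fold.

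The M region gave 3 genes to compare. H2-M2, named after its values were seen as the other class I gene past 1.5-fold in limb, read -0.11 in CKO limb and -0.72 in WT limb, and -0.64 in CKO brain and -1.09 in WT brain. Its differences of 0.61 in limb and 0.45 in brain fell on either side of the 1.5-fold line, and with normexp background correction the limb value was 0.579, under it. In brain the nearest measured H2 genes on either side of the line were D1 at 0.63 and Bl at 0.56. H2-M3, which shows formylated peptides, differed by -0.11 in limb and 0.28 in brain. H2-M10.2 was above background on both CKO arrays alone and too dim there to give a bound.

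Spot replicates gave the technical error of 4 member probes. The H2-Q7 probe averaged 1.01 ± 0.06 in CKO limb and 0.07 ± 0.07 in WT limb, and 0.23 ± 0.06 in CKO brain and -0.57 ± 0.07 in WT brain (SD between 10 spots of 1 array). The H2-K1 probe averaged 0.54 ± 0.05 over 8 spots in CKO limb and 0.07 ± 0.05 over 10 in WT limb, and 0.53 ± 0.04 in CKO brain and 0.01 ± 0.04 in WT brain. For Q7, K1 and M2 the spots of a CKO array did not overlap those of its WT array in either tissue. Spot by spot, the CKO minus WT difference of Q7 was at least 0.92 in limb and ran between 0.74 and 0.90 in brain. The dimmer H2-Ab1 probe overlapped between groups in brain, where its spot differences ran between 0.21 and 0.64. Spots of an array share the RNA and the labelling, so their spread says nothing about embryos.

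**Figure D3:**
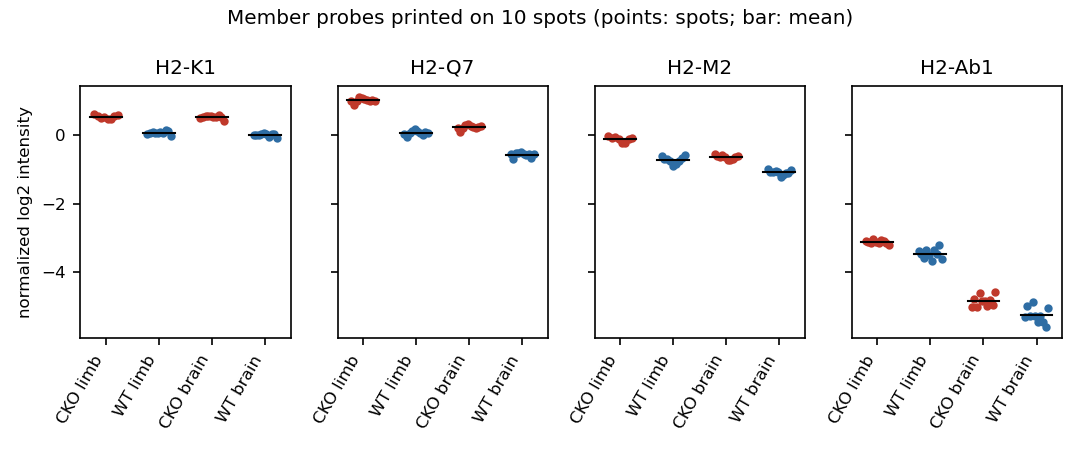
Normalized log2 intensity (y axis) of the 4 member probes printed on 10 spots, per array; points are spots that the scanner software did not mark as outliers, bars their mean, CKO red and WT blue. The H2-K1, H2-Q7 and H2-M2 spots separate CKO from WT in each tissue, and the brain spots of H2-Ab1 near -5 do not.

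The probes of several of these genes share sequence. Among the probes used, 4 pairs from 8 H2 genes shared a run of at least 20 bases or matched at 80% or more of at least 30 aligned bases. A transcript that carries a shared run can bind both probes, so these signals are not separate readings of each gene. The pairs are printed with the shared run in capitals, 5′ to 3′ as in the array design, since 6 of the 7 genes higher in both tissues are among them. The D1 probe (mm9, chr17:35403132-35403191) and the Q2 probe (chr17:35482113-35482172) matched at 47 of 50 aligned bases, with a run of 24.
H2-D1 probe: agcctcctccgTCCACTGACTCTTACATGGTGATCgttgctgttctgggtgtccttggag
H2-Q2 probe: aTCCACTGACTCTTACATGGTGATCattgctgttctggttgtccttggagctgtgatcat
The Q10 probe (chr17:35610210-35610269) and the Q5 probe (chr17:36246864-36247298, in an interval longer than the probe) shared 35 bases at their ends.
H2-Q10 probe: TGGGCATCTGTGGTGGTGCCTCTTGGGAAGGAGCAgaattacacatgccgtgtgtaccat
H2-Q5 probe: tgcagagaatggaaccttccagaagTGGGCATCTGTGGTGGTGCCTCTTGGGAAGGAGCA
The Q7 probe (chr17:35579687-35579918) and the T23 probe (chr17:36167338-36167574) matched at 50 of 59 aligned bases, and the run of 28 is shown with 1 base on each side.
H2-Q7 probe, shared run: aTTGGAGCTGTGGTGGCTTTTGTGATGAAt
H2-T23 probe, shared run: cTTGGAGCTGTGGTGGCTTTTGTGATGAAg

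With 1 gene of each such pair left out, 4 genes were at least 1.5-fold higher in CKO in both tissues, namely D1, D4, Q7 and Q10. Among probes outside the H2 names, 1 shared a run of 20 or more bases with an H2 probe, that of Gm7035, which RefSeq now lists as H2-K2 and which shared 35 bases with the Q2 probe. Its log2 difference was 1.02 in limb and 0.996 in brain.

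No class II gene was at least 1.5-fold higher in CKO in both tissues. Among the 7 compared in limb the median difference was 0.08 and 4 lay above 0, and among the 5 compared in brain the median was 0.53 and 4 lay above 0. H2-Ab1, the I-A beta chain, read -2.07 in CKO limb and -2.41 in WT limb, and -3.69 in CKO brain and -4.22 in WT brain. H2-DMb1, a chain of the DM molecule that loads peptides onto class II, read -2.16 in CKO limb and -2.38 in WT limb, and -3.33 in CKO brain and -4.60 in WT brain. It was 2.42-fold higher in CKO brain, the 1 H2 gene at least 2-fold higher there (1.37% of all genes were), and 1.17-fold higher in CKO limb. With normexp its brain difference was 0.52, under 1.5-fold, in place of 1.27. Its partner DMa differed by -0.27 in limb and 0.24 in brain.

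The widest class II gaps were bounds from 1 array each. H2-Eb2, an I-E beta type gene, read -1.33 in CKO limb, at least 12.3-fold above WT limb, where it was not well above background, and it was not well above background in either brain sample. It was the 1 H2 gene at least 2-fold higher in limb (2.50% of all genes were), and no H2 gene was 2-fold lower there (2.16% of all genes). The bound of 3.62 on the log2 scale was 2.17 with normexp and 0.31 with the mean of both probes. The array held a further Eb2 probe that shares 40 of its 60 bases and was not well above background on any array. Both are shown with the shared 40 bases in capitals (mm9, chr17:34470411-34470470 and chr17:34470431-34470490).
H2-Eb2 probe, bright in CKO limb: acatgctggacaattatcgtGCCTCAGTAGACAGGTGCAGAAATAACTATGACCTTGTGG
H2-Eb2 probe, dim on all arrays: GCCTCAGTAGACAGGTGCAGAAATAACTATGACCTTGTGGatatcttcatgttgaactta

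H2-Aa, the I-A alpha chain, was not well above background in CKO brain and read -3.72 in WT brain, at least 5.56-fold lower in CKO, the 1 H2 gene at least 2-fold lower in brain (1.22% of all genes were). The second Aa probe was not well above background in either brain sample. The bound of -2.47 on the log2 scale was -1.14 with normexp and -0.56, under 1.5-fold, with the mean of both probes. In limb Aa read -5.11 in CKO and -4.78 in WT. Eb1, the I-E beta chain, read -4.77 in CKO brain, at least 1.48-fold above WT brain, and -4.04 in CKO limb and -4.12 in WT limb. Thus neither large bound was shared by a gene's other probe.

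Ke2, a prefoldin subunit now listed as Pfdn6, read 3.09 in CKO limb and 2.92 in WT limb, and 3.43 in CKO brain and 3.40 in WT brain. Ke6, a hydroxysteroid dehydrogenase, differed by 0.09 in limb and -0.06 in brain. These neighbours of class I genes by position and name stayed within 1.13-fold.

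The H2 genes lie on chromosome 17 between 34076578 and 37618439 (mm9), a span of 3541.86 kb that holds all 38 and a further 159 genes on the array. The other genes had a median difference of -0.02 in limb (112 compared) and -0.02 in brain (118 compared). Among the 108 compared in both tissues, 3 were at least 1.5-fold higher in CKO in both and 0 were lower in both. These were Gm7035, Gm6034 and an unnamed transcript, NAP000023-001, named here after their values were seen. The array design describes the Gm6034 probe as a class Ib T15 transcript, and its differences were 0.85 in limb and 0.71 in brain. NAP000023-001 differed by 0.85 in limb and 0.75 in brain. Of the 65 genes on the array among 68 class III and framework neighbours, 61 were compared in limb with a median of -0.02, and 60 in brain with a median of -0.02.

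**Figure D4:**
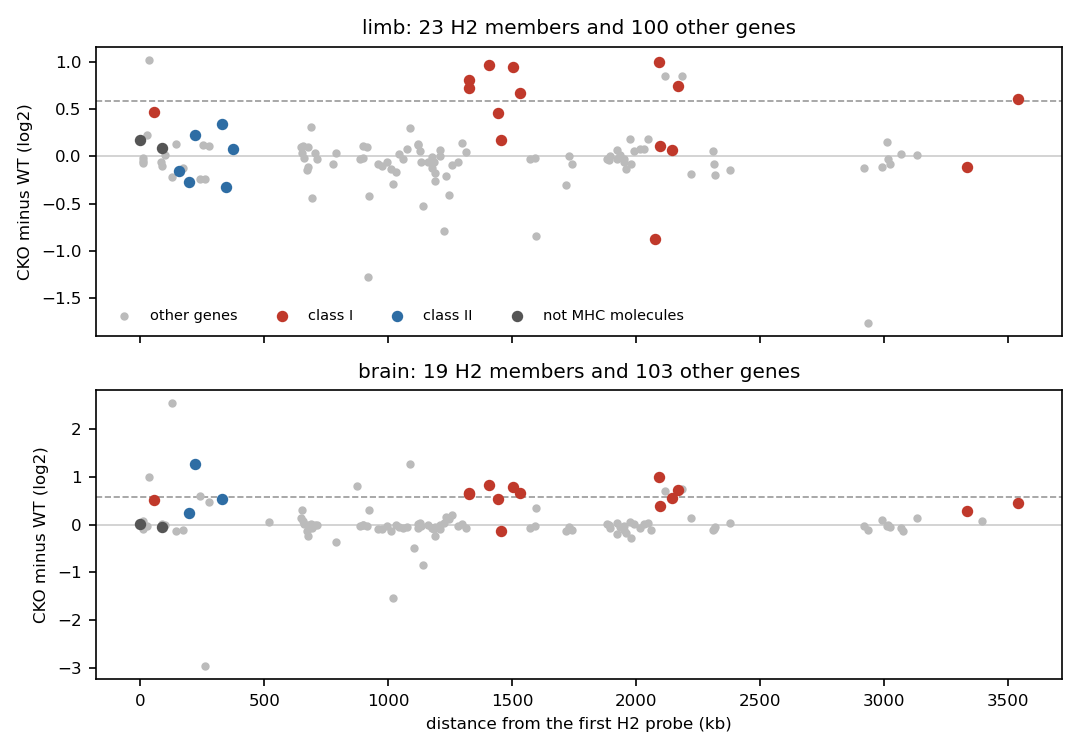
CKO minus WT (log2, y axis) against distance from the first H2 probe in kb (x axis) for genes measured above background on both arrays, in limb (upper panel) and brain (lower panel). Class I genes are red, class II blue, H2 genes that are not MHC molecules dark grey and other genes light grey, and the dashed line marks 1.5-fold. Most light grey points lie near 0, among red points of which many lie above the line.

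The partners of class I molecules had a median near 0 in both tissues. B2m, the light chain of all class I molecules, read 2.65 in CKO limb and 2.67 in WT limb, and 1.31 in CKO brain and 0.86 in WT brain. Tap1, of the peptide transporter, differed by 0.12 in limb and at least 0.05 in brain. Tapbp, which bridges the transporter and class I, differed by -0.28 in limb and 0.13 in brain. Over the 14 partners the median was -0.01 in limb and 0.04 in brain. None of the 14 reached 1.5-fold in limb, and in brain 1 was higher (3.48% of all genes) and 1 lower (1.98%). These were the immunoproteasome subunits Psmb9, at -3.57 in CKO brain and -4.18 in WT brain, and Psmb8, at -3.14 in CKO brain and -0.18 in WT brain.

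Among the 5 class II partners none reached 1.5-fold in either tissue. Cd74, the invariant chain, differed by -0.28 in limb and 0.25 in brain. Of the 18 regulators of MHC transcription none reached 1.5-fold in either tissue, and the median was -0.10 in limb and -0.01 in brain. Nlrc5, the class I transactivator, was not well above background on any array, and Ciita, the class II transactivator, was above it in CKO limb alone. Of 24 interferon response genes compared, 6 were at least 1.5-fold lower in CKO limb (4.73% of all genes) and 0 higher (4.77%). Their limb median was -0.30. In brain 1 was higher (3.48% of all genes) and 1 lower (1.98%), with a median of 0.17. Mx2, Gbp2 and Ifi44, among those lower in limb, read below -3 on both limb arrays. Rsad2, an antiviral enzyme, was lowest, at -2.49 in CKO limb and -1.38 in WT limb, and -4.45 in CKO brain and -3.77 in WT brain.

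Leukocyte and macrophage markers had medians of opposite sign in the 2 tissues. The 7 pan-leukocyte markers had a median of -0.30 in limb, with 7 of 7 below 0, and of 0.38 in brain, with 6 of 7 above 0. Their summed linear signal, in units of the array's 75th percentile, was 4.74 in CKO limb and 5.39 in WT limb, and 4.93 in CKO brain and 5.02 in WT brain. The brain sums mostly follow Coro1a, by far the brightest there, at 1.97 in CKO and 2.09 in WT (log2). Coro1a was the 1 marker of the 7 below 0 in brain. Cd52, a small surface antigen of leukocytes, differed by -0.12 in limb and 0.73 in brain. The summed signal of the 16 macrophage and microglia markers was 23.4 in CKO limb and 28.7 in WT limb, and 12.8 in CKO brain and 10.18 in WT brain. Their median difference was -0.21 in limb and 0.36 in brain, and 4 were at least 1.5-fold higher in CKO brain (3.48% of all genes). In limb the medians of these markers were below 0 and the class I median was above 0, and in brain all were above 0. The part of these cells in the class I values was not tested. Fewer cells of a type and less RNA per cell cannot be told apart in such bulk samples.

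Of 12 dendritic and B cell markers 11 were on the array, and 7 of these were above background in CKO limb and 5 in WT limb, and 6 in CKO brain and 8 in WT brain. Their summed signal was 2.43 in CKO limb and 2.44 in WT limb, and 2.31 in CKO brain and 3.79 in WT brain. Cd209a, a dendritic cell lectin, was not well above background in CKO brain or in either limb sample and read 0.22 in WT brain, and Itgax and Cd79a likewise were above background in WT brain alone, the array on which Aa stood out. T and natural killer cell markers summed to 7.35 in CKO limb and 5.90 in WT limb, and to 2.34 in CKO brain and 2.27 in WT brain. The limb sums mostly follow Thy1, by far the brightest there, at 2.75 in CKO and 2.41 in WT (log2). None of the 6 of these markers compared in limb reached 1.5-fold, and Cd3d, Cd2, Ncr1 and Klrk1 were not well above background on any array. Endothelial markers had a median of 0.04 in limb and 0.24 in brain, and no placental or yolk sac marker reached 1.5-fold in either tissue. The part of these cells in the H2 values was not tested.

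The direction of a tissue difference did not enter the choice of genes. It was tested over all 4 arrays, with genotype as a term. The error of this test comes from how unequal the CKO minus WT difference is between limb and brain. The rise of several H2 genes in both tissues did enter the choice. It can favour small errors, so the p-values are not independent of the choice. Most H2 genes tested were lower in brain than in limb. Of the 19 H2 genes tested, 14 were lower in brain at an adjusted p under 0.05 (34.4% of all 15632 genes tested were). At that threshold 2 were higher (32.2% were). Because of the choice, nothing is read from these counts against the shares. The median of the 19 was -0.68, against -0.03 over all genes tested. Tests used limma with Benjamini-Hochberg adjustment, on 1 residual degree of freedom per gene. With 1 array per group, that residual is the gap between the genotype differences of limb and brain, and limma shares its spread over genes. The p-values therefore do not measure spread between embryos, and the labels do not say whether samples came from separate embryos.

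H2-T22 averaged 0.33 on the brain arrays and 2.17 on the limb arrays, 3.57-fold lower in brain (log2 difference -1.84, SE 0.10, limma adjusted p 0.007). H2-Ab1 was 3.28-fold lower in brain (-1.71, SE 0.08, limma adjusted p 0.006), and DMb1 3.23-fold lower (-1.69, SE 0.33, limma adjusted p 0.036). H2-T23 was 2.33-fold lower in brain (-1.22, SE 0.05), by -1.23 between the CKO arrays and -1.22 between the WT arrays. Q10 was lower in brain by a difference of -0.87 (SE 0.05) and Q5 by -0.86 (SE 0.05). The genes higher in brain were Ke2, by 0.41 (SE 0.07, limma adjusted p 0.028), and Ke6, by 0.58 (SE 0.07, limma adjusted p 0.015), so no MHC molecule was called higher in brain. H2-K1 differed by -0.04 (SE 0.06, limma adjusted p 0.604), and DMa and Q8 did not pass either. With no genotype term 6 of the 19 were lower in brain, in a setting that called 10499 of 15632 genes in either direction. The main count thus depended on that term. With 1 array left out, also without that term, fewer still were lower. T22, Ab1, DMb1, Bl and M3 were called lower with and without the genotype term. D1, D4, Q2, Q5, Q7, Q10 and T23, all higher in CKO in both tissues, were called lower only with that term.

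**Figure D5:**
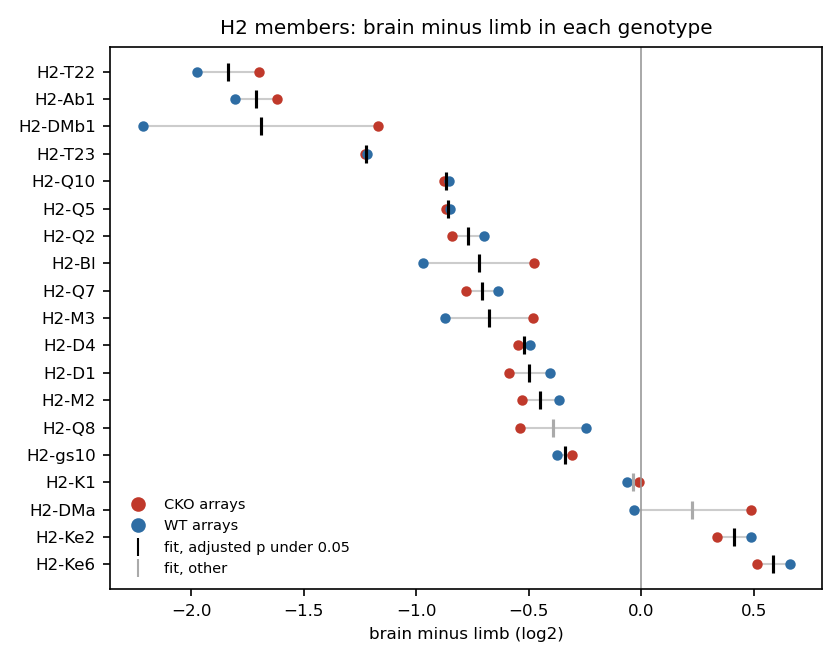
Brain minus limb (log2, x axis) for the 19 H2 genes well above background on all 4 arrays, between the CKO arrays (red) and between the WT arrays (blue), with the fitted value as a tick that is black at an adjusted p under 0.05 and grey otherwise. Of the 19, 16 lie below 0 in both genotypes, and Ke2 and Ke6 lie above 0 in both. The share of all genes below 0 in both genotypes was not counted.

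Macrophage and microglia markers also summed lower in brain (12.8 in CKO and 10.18 in WT) than in limb (23.4 in CKO and 28.7 in WT), and endothelial markers did too (18.6 in CKO and 16.1 in WT brain, against 26.7 in CKO and 25.3 in WT limb). B2m was lower on both brain arrays than on both limb arrays. Their part in the tissue difference was not tested.

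The promoters of the H2 genes were read for motifs because many class I genes were higher together. RefSeq promoters (GRCm38.p6) matched 30 of the 38 genes, and the 250 bases before the start were searched on both strands; a match is a description and not a binding site. The kappa B word GGGGATTCC stood in 3 of the 30, D1, K1 and Q7, and in 0.213% of the 32851 promoters. The word TGACGCG stood in D1 and K1, and in 1.56% of all promoters. The interferon-type repeat GAANNGAA stood in 11 of the 30 (9 of 20 class I and 2 of 8 class II) and in 17.2% of all promoters, and CCAAT in 27 of the 30 and in 33.8% of all. The words TTCAGCACC and GGACAGCG, taken as the left and right parts of the element that Rest binds, stood in 0 of the 30, and in 0.301% and 0.992% of all promoters. Words this rare would seldom be met in 30 promoters, so nothing is read from the 0. Only exact words within the 250 bases were searched, and binding of Rest was not tested. The promoters of D1 (chr17:35262844-35263093, plus strand), T23 (chr17:36032702-36032951, minus strand) and T22 (chr17:36042743-36042992, minus strand) are shown, as D1 and T23 were among the genes higher in both tissues and T22, a neighbour of T23, was not. Capitals mark matches of the first 4 motifs, none of which overlap in these 3 promoters.
H2-D1 promoter: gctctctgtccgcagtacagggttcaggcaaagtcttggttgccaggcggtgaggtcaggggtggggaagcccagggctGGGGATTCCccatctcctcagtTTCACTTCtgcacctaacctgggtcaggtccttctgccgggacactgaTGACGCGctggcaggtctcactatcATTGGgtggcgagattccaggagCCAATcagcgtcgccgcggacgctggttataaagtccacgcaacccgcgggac
H2-T23 promoter: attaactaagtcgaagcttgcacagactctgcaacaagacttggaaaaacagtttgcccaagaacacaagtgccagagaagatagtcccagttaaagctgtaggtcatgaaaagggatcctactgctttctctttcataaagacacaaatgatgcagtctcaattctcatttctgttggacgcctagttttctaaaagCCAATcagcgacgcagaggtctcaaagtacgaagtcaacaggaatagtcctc
H2-T22 promoter: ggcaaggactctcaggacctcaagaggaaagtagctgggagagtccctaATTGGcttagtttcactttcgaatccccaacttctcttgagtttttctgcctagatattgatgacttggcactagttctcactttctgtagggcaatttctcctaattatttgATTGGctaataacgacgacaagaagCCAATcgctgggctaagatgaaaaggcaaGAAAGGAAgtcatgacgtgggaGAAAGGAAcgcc
Only D1 of the 3 held the kappa B word and TGACGCG. Of the 4 words, T23, with a larger difference than T22, held CCAAT alone. The word GAANNGAA takes exactly 2 bases between its GAA parts, so repeats with a wider gap were not searched. Both T23 and T22 hold such a repeat on the other strand, with 3 bases between, left in lower case.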

How the data were processed

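RNA from limb and brain of CKO and WT embryos at E13.5 was hybridised as Cy3-labelled cRNA, 1 array per group on 1 slide. The authors deposited intensities on a linear scale, and the submitters' processing notes name Agilent Feature Extraction 9.5.3.1. Per the file headers these intensities were background-subtracted and detrended within each array. Other deposited columns of the scanner files were flags, names and positions (mm9), used as the authors deposited them. The intensities of the deposited series table differed from them by at most 0.01 on the log2 scale.

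Control spots were left out and log2 intensity was set to 0 at each array's 75th percentile. Spots that the scanner software did not mark as outliers were averaged per probe, and a gene was taken by its probe with the highest mean. Where only 1 array of a pair exceeded background, the difference was bounded by the higher of that array's lowest signal above background and the probe's own, and set to 0 where it would have changed sign. H2 genes kept the name in the file; of the other probes 26885 were named by accession, 5560 by current symbol and 893 by synonym. Sizes of at least 1.5- and 2-fold were counted. Brain was tested against limb in limma with genotype as a term, on unsaturated genes above background on every array, at an adjusted p of 0.05, with the test checked on simulated data. The groups share numbers but each has 1 array, so spread between embryos is unknown, and precision is limited by the number of arrays.

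The genes, their classes and the other lists were chosen with earlier results of these data known, and the class of D4 was set after its name was seen. Named genes were the 8 H2 genes with the highest mean, those at least 1.5-fold different in the same direction in both tissues, those at least 2-fold different with both arrays above background, up to 3 bounds per tissue and up to 6 by size in brain over limb; in other lists B2m, Tap1, Tapbp, Cd74 and up to 3 more of 1.5-fold or above, by size. Other genes named were chosen after their values were seen. Alternatives covered background correction (normexp, offset 50), quantile and median scaling, the series table, the mean of all probes and the filter on dim probes, with 3 more chosen after seeing the data. Calculations used Python 3.11.15, numpy 2.4.6, pandas 2.3.3, matplotlib 3.10.9, R 4.3.3 and limma 3.58.1.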

Additional observations from a re-analysis of the deposited data

Results flagged for a closer look

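For 4 H2 genes measured on all arrays the CKO minus WT difference had opposite signs in limb and brain; with 1 array per group the difference between tissues was not tested. The limb difference minus the brain difference was -0.52 for DMa (-0.27 in limb and 0.24 in brain) and -0.39 for M3 (-0.11 and 0.28). It was 0.29 for Q8 (0.17 and -0.13) and 0.15 for Ke6 (0.09 and -0.06).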

How the results depend on the processing

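The 19 H2 differences of at least 1.5-fold, 10 in limb and 9 in brain, kept their sign in all 131 values that the alternatives gave, and 17 of these moved by more than the technical SD. Counts of genes at least 1.5-fold higher in both tissues stayed within 1.5 times of 7 under every alternative but 1: with 1 gene of each pair of probes sharing sequence left out, 4 were higher in both and 5 in brain. With normexp the count of genes lower in limb was 0 and the brain median 0.35. With the mean of all probes the brain count lower was 0 and the median 0.45. Requiring both arrays above background, or taking class I genes alone, gave 0 lower in brain. With no filter on dim probes 13 were lower in limb, with a median of 0.082, and 15 in brain, with a median of 0.13, since genes near background entered. The limb median of 0.20 over all H2 genes became 0.28 without the 2 genes that are not MHC molecules and 0.47 for class I alone, and the brain median in the main setting was 0.53. In brain over limb, 6 of the 19 genes were lower without the genotype term, a setting that called 10499 of 15632 genes in either direction. Leaving out 1 array, with that term dropped, gave between 3 and 5 lower and between 1 and 2 higher. No paired analysis was possible because each group has 1 array and the groups share only the number 1. Below a level of -3 the spot SD of a difference, 0.27 in limb and 0.29 in brain, limits what a probe printed once can show.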
